A study of Rattus norvegicus with 45 samples.

Results

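Livers of rats taken 6 h after dosing with myclobutanil were compared with livers of control rats taken at the same time. The arrays were chosen by their titles, which give 5 myclobutanil and 5 control arrays at 6 h, 10 of the 45 arrays in the study. All animals were male Sprague-Dawley rats of 10 weeks that received their dose by gavage, and each array was titled with its own replicate number. The myclobutanil group received 225 mg/kg/day, a dose stated for the whole series and not for each sample, and the vehicle of the controls is not given in the sources used here. The study also held rats given triadimefon, another triazole, at 175 mg/kg/day, and repeated all groups at 24 h and 14 days. The labels conflict on animal numbers (the series text counts 15 livers and the labelling protocol 3 animals for each treatment), so the 5 arrays of a group are treated as 5 livers only on the word of the titles, and arrays of shared animals would make the p-values too small.

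Myclobutanil is a triazole fungicide, made to block the fungal cytochrome P450 that demethylates precursors of ergosterol. In rat liver, triazoles are known as activators of the nuclear receptors CAR and PXR, which raise transcription of Cyp2b and Cyp3a enzymes, of the haem synthesis and electron transfer proteins those enzymes need, and of drug transporters. The liver also makes hepcidin, the hormone that limits iron release into blood, and it sets its own sterol and glutathione supply through regulated enzymes.

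The deposited values, 1 per probe set and array, are scores of log type whose base is not stated, so differences are given in score units (myclobutanil minus control) and not as folds. Values of the 5 arrays of a group are listed in the order of their replicate numbers, which pair nothing between the groups. The error after the sign ± of a difference is the standard error of a limma fit over all 45 arrays, and a probe set counts as changed at a Benjamini-Hochberg adjusted p under 0.05 over 31042 probe sets. Array medians lay between -0.011 and 0.025, and their 99th percentiles between 2.77 and 3.09 in the myclobutanil group and between 2.69 and 3.24 in the control group. Each array carries the last 2 digits of its file name, called its ending here. In the myclobutanil group, 2 arrays (1 and 2) had the ending 11 and 3 arrays (3, 4 and 5) the ending 12, whereas in the control group 3 arrays (1, 4 and 5) had the ending 11, array 2 the ending 31 and array 3 the ending 21. What the ending records is not given in the sources used here. Control arrays 2 and 3 had the highest 99th percentiles of the 10, at 3.24 and 3.17. The main genes below are therefore also given with the ending as a term in the fit and among the 5 arrays of ending 11, the only ending both groups hold. In the first of these fits the endings 21 and 31 take up control arrays 2 and 3 entirely. The second took its spread from all arrays of ending 11 in the series, at all times and treatments. Its differences rest on the 5 arrays, but its p-values do not rest on them alone.

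The tissue label was checked against cell type markers. The 13 measured hepatocyte markers averaged 3.62 to 4.06 across the myclobutanil arrays and 3.55 to 4.52 across the control arrays, far above the array medians. Kupffer cell and macrophage markers averaged 1.08 to 1.30 across the myclobutanil arrays and 1.25 to 1.38 across the control arrays, and sinusoidal endothelial markers 0.845 to 0.945 and 0.814 to 0.953. Of the other markers, 11 of 14 for lymphocytes, 9 of 10 for neutrophils, 6 of 10 for bile duct cells and 13 of 15 for pancreas, fat or muscle had mean scores under 0. For stellate cells and fibroblasts 4 of 16 did, with averages of 0.52 to 0.64 across the myclobutanil arrays and 0.52 to 0.66 across the control arrays. For erythroid cells 5 of 9 did, with averages of 0.29 to 0.38 and 0.31 to 0.52. No gene of these 9 marker lists passed the threshold at 6 h. In bulk liver RNA, fewer cells of a type and less RNA per cell cannot be told apart.

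At 6 h, 84 probe sets were higher (0.271% of those tested) and 34 lower (0.11%) with myclobutanil, 118 in all (0.38%). They comprised 89 probe sets of a single listed gene, which stand for 75 genes, 48 higher and 27 lower. The differences were small for the most part: their median size was 0.276 units, 20 exceeded 0.5 units and 54 lay under 0.25 units. Among the changed probe sets, those of Cyp2b1 or Cyp2b2 and of Hamp alone moved by more than 1 unit. The values of the 2 groups did not overlap for 98 of the 118, 75 higher and 23 lower, a property that 507 of all probe sets (1.63%) shared. Leaving out any single array kept 56 of the 118 calls, 42 higher and 14 lower. At an unadjusted p under 0.05 the count was 2624.

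**Figure D1:**
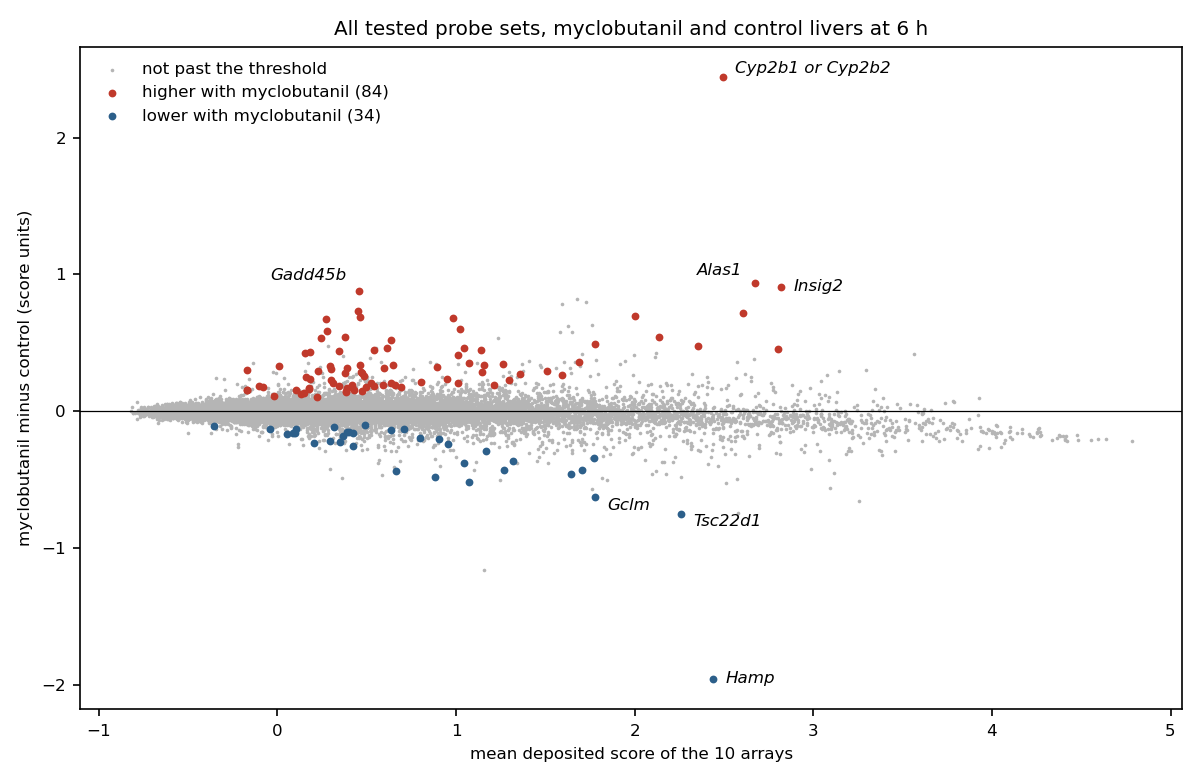
Difference between myclobutanil and control livers at 6 h (score units) against the mean score of the 10 arrays, 1 point per tested probe set. The 84 higher and 34 lower probe sets are coloured; Cyp2b1 or Cyp2b2 lies highest at 2.44 units and Hamp lowest at -1.95, and the cloud of the brightest probe sets bends slightly below 0.

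Genes of the CAR and PXR response led the list. Of 30 measured genes of this response, 5 rose (Cyp2b1 or Cyp2b2, Alas1, Abcb1a, Por and Slco1a4) and 0 fell, where 0.317% of 14217 genes rose and 0.148% fell. The median difference of the list was 0.148 units and that of all genes -0.0056. Cyp2b1 and Cyp2b2 encode the phenobarbital-inducible P450 enzymes of rat liver and share a probe set, which scored 3.10, 3.85, 3.69, 4.02 and 3.91 on the myclobutanil arrays, against 1.10, 0.81, 1.22, 1.86 and 1.37 on the control arrays. The lowest treated liver lay above the highest control, and the difference was 2.44 ± 0.21 (adjusted p = 8.2e-10). It was 2.03 (adjusted p = 0.00267) among the arrays of ending 11 and 2.13 (adjusted p = 3.37e-05) with the ending as a term.

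The probe set cannot separate the pair of genes, and their promoters are nearly the same as well. They are shown here because induction of the pair is the largest change in the comparison. Both windows are from RefSeq (assembly GRCr8, plus strand, 250 bases before to 50 after the start site): Cyp2b1 at chr1:90645869-90646168 and Cyp2b2 at chr1:90722031-90722330. Aligned without gaps, with the Cyp2b2 window shifted by 17 bases, 275 of 283 positions (97.2%) were identical. Capitals mark the 8 positions that differ and, at the ends, the bases without a counterpart in the other window.
Cyp2b1: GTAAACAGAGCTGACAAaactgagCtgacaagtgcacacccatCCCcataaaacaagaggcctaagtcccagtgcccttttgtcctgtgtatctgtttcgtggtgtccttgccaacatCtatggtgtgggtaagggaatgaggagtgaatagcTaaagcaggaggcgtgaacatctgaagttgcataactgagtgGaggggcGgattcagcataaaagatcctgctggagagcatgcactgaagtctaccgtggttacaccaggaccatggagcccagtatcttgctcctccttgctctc
Cyp2b2: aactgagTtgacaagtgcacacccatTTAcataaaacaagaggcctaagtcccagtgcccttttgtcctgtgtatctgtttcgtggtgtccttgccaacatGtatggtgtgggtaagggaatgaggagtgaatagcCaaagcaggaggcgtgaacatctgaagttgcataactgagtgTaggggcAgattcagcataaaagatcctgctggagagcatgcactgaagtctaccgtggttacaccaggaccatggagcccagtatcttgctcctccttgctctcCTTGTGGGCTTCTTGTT

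Alas1, the rate-limiting enzyme of haem synthesis, scored 2.91, 2.89, 3.06, 3.60 and 3.24 on the myclobutanil arrays, against 1.76, 2.24, 2.66, 2.37 and 1.99 on the control arrays. All treated livers lay above all controls, and control array 3 came nearest. The difference was 0.94 ± 0.17 (adjusted p = 0.00215), with 0.99 (adjusted p = 0.0364) when the ending was a term and 0.86 (adjusted p = 0.309) among the 5 arrays of ending 11. Por, the reductase that passes electrons to the P450 enzymes, scored 2.22, 2.17, 2.06, 2.89 and 2.40 on the myclobutanil arrays, against 1.27, 1.65, 2.001, 1.72 and 1.61 on the control arrays. Its groups did not overlap, but control array 3 was within 0.1 units of the lowest treated liver. The difference of 0.70 ± 0.17 (adjusted p = 0.0477) lay just inside the threshold, and the call was lost without myclobutanil arrays 1, 2, 4 or 5 or without control arrays 1, 2, 4 or 5 (adjusted p up to 0.177). It was 0.79 (adjusted p = 0.265) with the ending as a term, and among arrays of ending 11 0.67 (adjusted p = 0.569). The second Por probe set gave 0.63 ± 0.15 and an adjusted p of 0.0515, just outside.

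Of the transporters that CAR and PXR govern, both changed members rose with more than 1 probe set. Abcb1a, a P-glycoprotein that pumps drugs out of the cell, scored 0.63, 0.73, 0.97, 0.99 and 0.78 on the myclobutanil arrays, against -0.012, 0.13, -0.048, 0.24 and 0.13 on the control arrays. Control livers sat near the array median and treated livers clear of it, with a difference of 0.73 ± 0.092 (adjusted p = 4.39e-06). A second Abcb1a probe set gave 0.58 ± 0.083 (adjusted p = 4.24e-05), and a probe set listed for Abcb1a or Abcb1b gave 0.54 ± 0.074 (adjusted p = 1.9e-05). For the same 3 probe sets the differences among arrays of ending 11 were 0.56 (adjusted p = 0.182), 0.48 (adjusted p = 0.215) and 0.38 (adjusted p = 0.31). With the ending as a term they were 0.64 (adjusted p = 0.00773), 0.52 (adjusted p = 0.0254) and 0.46 (adjusted p = 0.0279).

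Slco1a4, a transporter that takes up bile acids and drugs from blood, scored 2.31, 2.64, 2.46, 2.42 and 2.22 on the myclobutanil arrays, against 1.89, 1.77, 1.84, 1.79 and 2.04 on the control arrays. Its groups did not overlap, and the difference was 0.54 ± 0.095 (adjusted p = 0.00119). A second, brighter Slco1a4 probe set gave 0.46 ± 0.095 (adjusted p = 0.0107) and was no longer called without myclobutanil array 2 (adjusted p up to 0.0648). With the ending as a term the differences were 0.51 (adjusted p = 0.128) and 0.47 (adjusted p = 0.22), and among arrays of ending 11 0.56 (adjusted p = 0.215) and 0.49 (adjusted p = 0.369). Among the 28 drug and anion transporters measured, 2 rose (Abcb1a and Slco1a4) and 1 fell, Slc13a4. Slc13a4, a sulfate transporter, scored 1.004, 1.14, 1.05, 1.05 and 1.03 on the myclobutanil arrays, against 1.56, 1.58, 1.35, 1.32 and 1.61 on the control arrays. Treated livers were tightly grouped and all below the controls. The difference was -0.43 ± 0.10 (adjusted p = 0.0218), a call lost without myclobutanil arrays 1 or 3 or without control arrays 1, 2 or 5 (adjusted p up to 0.08). It was -0.42 (adjusted p = 0.34) with the ending as a term and -0.43 (adjusted p = 0.527) among arrays of ending 11.

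Other enzymes of drug metabolism gave no calls. None of 38 other P450 genes and none of 30 conjugating enzymes passed the threshold, with median differences of -0.031 and -0.028 units. Cyp3a2, the male-biased PXR target, averaged 3.82 ± 0.22 on the myclobutanil arrays and 3.76 ± 0.27 on the control arrays (SD, n = 5 each), with overlapping groups and a difference of 0.068 ± 0.15 (adjusted p = 0.959). Cyp3a23-3a1 averaged 3.78 ± 0.21 on the myclobutanil arrays and 3.36 ± 0.33 on the control arrays, and its difference of 0.42 ± 0.15 missed the threshold (adjusted p = 0.279). After quantile normalization Cyp3a23-3a1 passed it, with an adjusted p of 1.43e-06, and the count for the CAR and PXR list became 8 higher of 30. In that fit 0.857% of all probe sets were higher. The list had 3 higher with the ending as a term and 1 higher among arrays of ending 11. Cyp1a1, the marker enzyme of the Ah receptor, had scores of -0.049, -0.17, -0.10, 0.029 and -0.052 on the myclobutanil arrays, against -0.19, -0.13, -0.083, -0.12 and -0.17 on the control arrays, within the low range of the array and with a difference of 0.071 ± 0.070 (adjusted p = 0.886). The receptor gene Ahr itself scored 0.44, 0.68, 0.57, 0.44 and 0.60 on the myclobutanil arrays, against 0.26, 0.24, 0.27, 0.19 and 0.20 on the control arrays. All 5 treated livers were above the controls, by 0.31 ± 0.075 (adjusted p = 0.0397), but the call was lost without myclobutanil arrays 2, 3 or 5 or without control arrays 1, 2, 3, 4 or 5 (adjusted p up to 0.128), and a second, dimmer Ahr probe set showed a difference of -0.012 ± 0.024 (adjusted p = 0.957). The brighter Ahr probe set gave 0.31 (adjusted p = 0.435) with the ending as a term and 0.34 (adjusted p = 0.395) among arrays of ending 11.

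**Figure D2:**
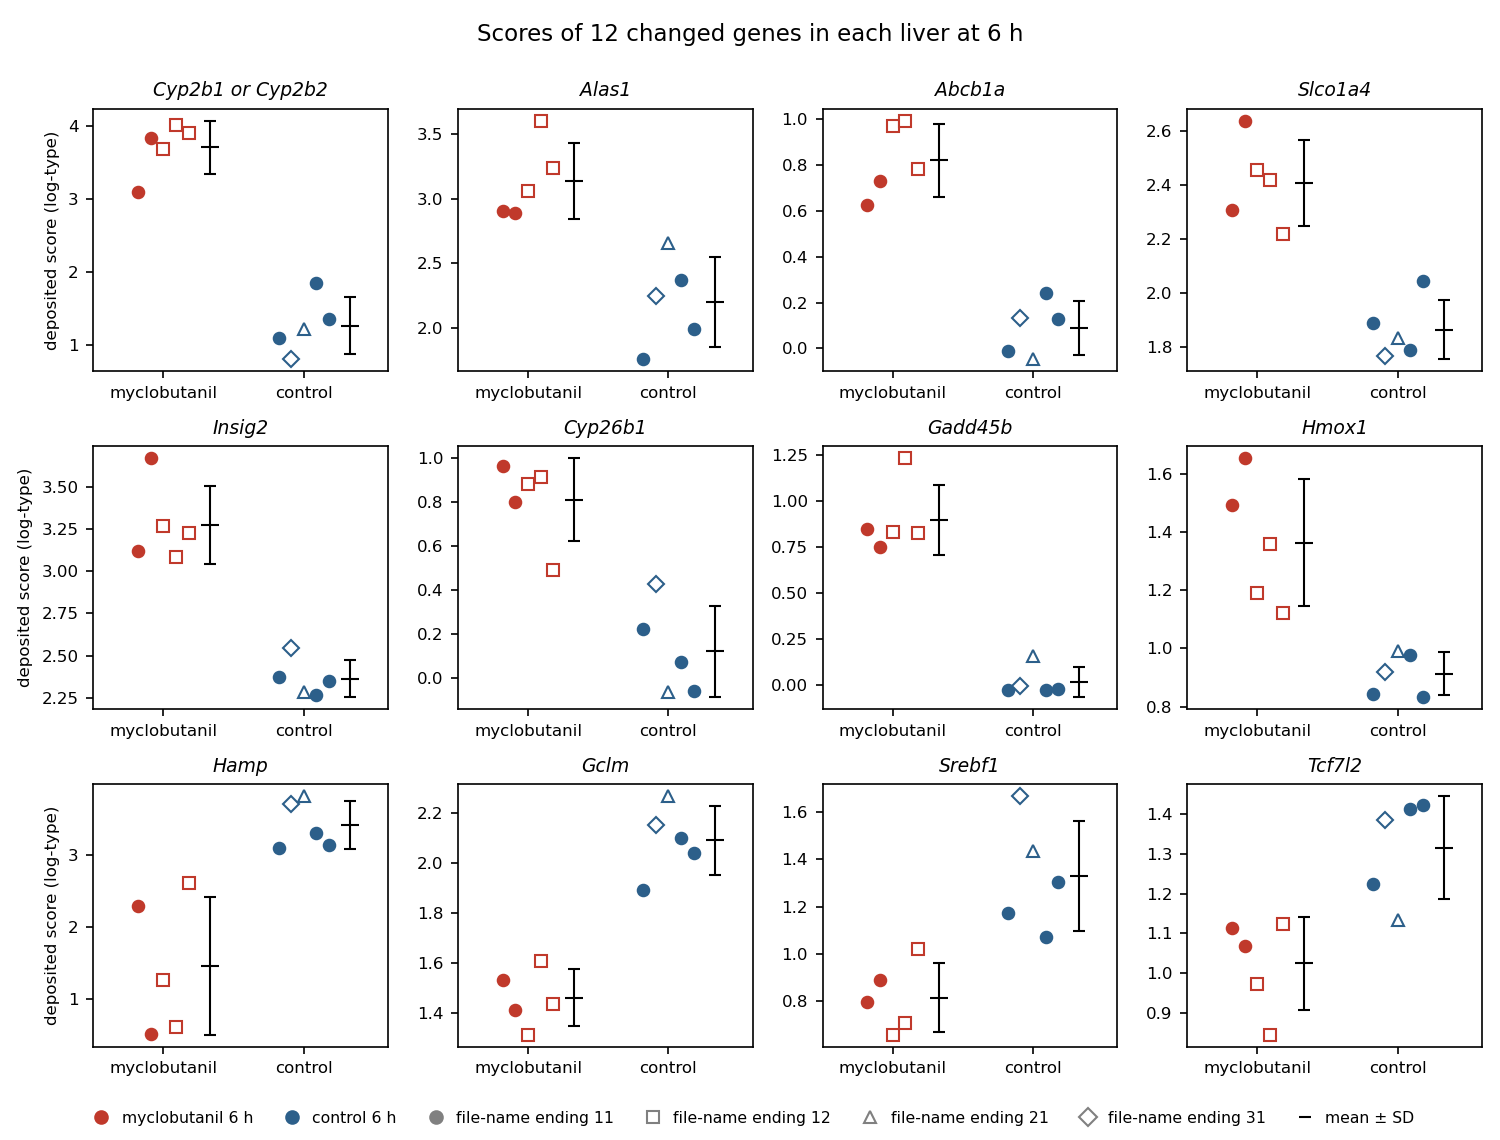
Deposited scores of 12 changed genes in each liver at 6 h, myclobutanil left of control in every panel; marker shape gives the file-name ending and the bar beside each group its mean ± SD (n = 5 each). The groups do not overlap in any panel, with the narrowest gap in Tcf7l2 and 3.10 to 4.02 against 0.81 to 1.86 for Cyp2b1 or Cyp2b2 and 0.52 to 2.61 against 3.10 to 3.82 for Hamp.

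In haem synthesis and breakdown, 3 of 21 genes rose (Alas1, Hmox1 and Por) and 0 fell, beside a list median of -0.018 units. Hmox1, which opens the haem ring and releases iron, scored 1.49, 1.65, 1.19, 1.36 and 1.12 on the myclobutanil arrays, against 0.84, 0.92, 0.99, 0.98 and 0.83 on the control arrays. The groups did not overlap, and the treated arrays 1 and 2, both of ending 11, were the highest. The difference was 0.45 ± 0.068 (adjusted p = 9.85e-05). It was 0.69 (adjusted p = 2.26e-05) among arrays of ending 11 and 0.54 (adjusted p = 0.00188) with the ending as a term, so it was as large within that ending as over all arrays.

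Hamp, the gene of hepcidin, was the most strongly lowered. It scored 2.29, 0.52, 1.27, 0.62 and 2.61 on the myclobutanil arrays, against 3.10, 3.71, 3.82, 3.31 and 3.14 on the control arrays. Controls were bright and close together, whereas treated livers ranged widely, with arrays 2 and 4 lowest and arrays 1 and 5 nearest to the controls. No treated value reached a control value, and the difference was -1.95 ± 0.38 (adjusted p = 0.00571). The call was kept when any single array was left out (adjusted p up to 0.0432). It was lost when only the arrays of the compared groups were fitted (adjusted p = 0.0764). Without control arrays 2 and 3 together, a setting chosen after the values had been seen, the difference was -1.72 (adjusted p = 0.114). Among arrays of ending 11 the difference was -1.78 (adjusted p = 0.335). With the ending as a term it was -1.55 (adjusted p = 0.448), and neither passed the threshold. Hamp was the sole changed gene of 28 for iron handling, whose median was -0.0086 units. Id1 and Smad7, targets of the BMP signal that drives hepcidin, did not pass the threshold. Id1 averaged 0.24 ± 0.047 on the myclobutanil arrays and 0.22 ± 0.020 on the control arrays, a difference of 0.017 ± 0.032 (adjusted p = 0.95). Smad7 averaged 0.21 ± 0.18 on the myclobutanil arrays and 0.28 ± 0.084 on the control arrays, a difference of -0.067 ± 0.065 (adjusted p = 0.884) (SD, n = 5 each).

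Sterol and fat genes gave few single calls. Sterol synthesis and uptake had 23 measured genes, of which 1 rose and 0 fell, and the median was -0.109 units with 20 of 23 differences below 0. Over all genes, 8003 of 14217 differences were below 0. The riser was Insig2, which holds the sterol sensor SCAP in the endoplasmic reticulum and so keeps SREBP factors inactive. Insig2 scored 3.12, 3.67, 3.26, 3.08 and 3.22 on the myclobutanil arrays, against 2.38, 2.54, 2.28, 2.26 and 2.35 on the control arrays. No values overlapped, and treated array 2 was the highest. The difference was 0.91 ± 0.13 (adjusted p = 4.91e-05), and a second probe set gave 0.72 ± 0.12 (adjusted p = 0.000844). Among arrays of ending 11 the brighter probe set gave 1.06 (adjusted p = 0.0272), and with the ending as a term 0.96 (adjusted p = 0.00638).

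Its paralog Insig1 scored 2.18, 2.04, 1.89, 2.35 and 2.48 on the myclobutanil arrays, against 2.05, 2.90, 2.91, 2.33 and 2.02 on the control arrays, with overlapping groups and a difference of -0.25 ± 0.18 (adjusted p = 0.807). Cyp51, the mammalian counterpart of the enzyme that triazoles block in fungi, scored 2.25, 2.46, 2.49, 2.42 and 2.38 on the myclobutanil arrays, against 2.45, 2.96, 2.58, 2.76 and 2.64 on the control arrays. All treated livers lay below 4 of the 5 controls, but the difference of -0.27 ± 0.10 (adjusted p = 0.349) missed the threshold. Other members of the list had differences of -0.33 (Msmo1, adjusted p = 0.271) and -0.31 (Dhcr7, adjusted p = 0.262) without passing it.

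Srebf1, the gene of the SREBP factor that drives fatty acid synthesis, scored 0.80, 0.89, 0.66, 0.71 and 1.02 on the myclobutanil arrays, against 1.17, 1.67, 1.43, 1.07 and 1.30 on the control arrays. The groups did not overlap, with control array 2 the highest, and the difference was -0.52 ± 0.11 (adjusted p = 0.0221). The call was lost without myclobutanil arrays 3 or 4 or without control arrays 2 or 3 (adjusted p up to 0.106). Its difference was -0.37 (adjusted p = 0.598) with the ending as a term, and among arrays of ending 11 -0.34 (adjusted p = 0.745). The brighter Srebf1 probe set had a difference of -0.57 ± 0.14 and an adjusted p of 0.0507, just outside the threshold. Since that brighter probe set stands for the gene in the lists, 0 of 33 genes of fatty acid and triglyceride synthesis changed, with a median of -0.114 units.

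Among 48 genes of fatty acid oxidation, 0 passed the threshold, with a median of -0.081 units and 39 differences below 0. Over all genes, 8003 of 14217 were below 0. Cyp4a1, a fatty acid hydroxylase that PPAR-alpha induces, averaged 2.25 ± 0.076 on the myclobutanil arrays and 2.78 ± 0.15 on the control arrays (SD, n = 5 each), and its difference of -0.53 ± 0.13 missed the threshold narrowly (adjusted p = 0.0508). After quantile normalization 7 of the 48 were lower and 0 higher, with a median of -0.055 units, where 0.564% of all probe sets were lower and 0.857% higher. The medians were -0.016 with the ending as a term and -0.0063 among arrays of ending 11, with 0 lower in both. Osbpl11, a member of the oxysterol-binding family, scored 0.75, 0.61, 0.48, 0.71 and 0.66 on the myclobutanil arrays, against 1.19, 1.33, 0.92, 1.01 and 1.15 on the control arrays. Its groups did not overlap, and the difference was -0.48 ± 0.094 (adjusted p = 0.00507), a call kept when any single array was left out but not with the ending as a term, -0.49 (adjusted p = 0.128), or among arrays of ending 11, -0.44 (adjusted p = 0.413). Cyp7a1, the rate-limiting enzyme of bile acid synthesis, scored 1.61, 1.56, 1.46, 2.58 and 2.58 on the myclobutanil arrays, against 2.03, 2.47, 2.13, 1.94 and 2.48 on the control arrays, a wide spread in both groups and a difference of -0.25 ± 0.27 (adjusted p = 0.898). Of 28 genes of bile acid synthesis and transport, Slco1a4 alone rose and 0 fell.

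Enzymes that clear retinoic acid rose together. Of 28 genes of retinoic acid and retinol handling, 2 rose (Cyp26a1 and Cyp26b1, the P450 enzymes that oxidise retinoic acid) and 0 fell, with a list median of -0.019 units. Cyp26b1 scored 0.96, 0.80, 0.88, 0.91 and 0.49 on the myclobutanil arrays, against 0.22, 0.43, -0.063, 0.073 and -0.060 on the control arrays. Treated array 5 was the lowest of its group and still above control array 2, the highest control. The difference was 0.69 ± 0.12 (adjusted p = 0.00201), 0.80 (adjusted p = 0.0791) among arrays of ending 11 and 0.84 (adjusted p = 0.00773) with the ending as a term. A dimmer Cyp26b1 probe set was also higher, by 0.15 ± 0.035 (adjusted p = 0.03). Cyp26a1 scored 0.032, 0.020, 0.41, 0.45 and -0.026 on the myclobutanil arrays, against -0.074, -0.16, -0.13, -0.19 and -0.23 on the control arrays. All treated values were above all controls, but arrays 3 and 4, both of ending 12, were far above the other treated arrays. Its difference of 0.33 ± 0.073 (adjusted p = 0.0196) lost the call without myclobutanil arrays 3 or 4 or without control array 5 (adjusted p up to 0.118), and among arrays of ending 11 it was 0.19 (adjusted p = 0.653). The fit with the ending as a term gave 0.29 (adjusted p = 0.448).

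Both subunits of glutamate-cysteine ligase, the rate-limiting enzyme of glutathione synthesis, fell. Gclm, the modifier subunit, scored 1.53, 1.41, 1.31, 1.61 and 1.44 on the myclobutanil arrays, against 1.89, 2.15, 2.27, 2.10 and 2.04 on the control arrays. The groups were well apart, and the difference was -0.63 ± 0.067 (adjusted p = 2.13e-07). It was -0.54 (adjusted p = 0.014) among arrays of ending 11 and -0.54 (adjusted p = 0.00188) with the ending as a term, the sole decrease among single genes that passed the threshold in both.

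Gclc, the catalytic subunit, had 2 probe sets below control. The dimmer scored 0.95, 0.87, 0.79, 0.86 and 0.80 on the myclobutanil arrays, against 1.14, 1.36, 1.16, 1.22 and 1.29 on the control arrays, and its difference was -0.38 ± 0.078 (adjusted p = 0.0112). The brighter scored 1.19, 1.08, 1.11, 1.17 and 1.14 on the myclobutanil arrays, against 1.41, 1.60, 1.37, 1.58 and 1.55 on the control arrays, with a difference of -0.36 ± 0.081 (adjusted p = 0.0236). For both, every treated value lay below every control value. The calls were lost without control array 2 (adjusted p up to 0.052) for the dimmer and without myclobutanil arrays 2 or 3 or without control arrays 2, 4 or 5 (adjusted p up to 0.0825) for the brighter, and with the ending as a term the differences were -0.34 (adjusted p = 0.346) and -0.37 (adjusted p = 0.28). Among arrays of ending 11 they were -0.31 (adjusted p = 0.653) and -0.38 (adjusted p = 0.5).

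Of 26 genes of the NRF2 response and glutathione synthesis, these 2 fell and Hmox1 rose, while the list median was -0.057 units. Nqo1, a quinone reductase that NRF2 induces, scored 0.42, 1.59, 1.52, 0.93 and 1.08 on the myclobutanil arrays, against 1.17, 1.55, 1.28, 1.44 and 1.40 on the control arrays, with treated array 1 far below the rest and a difference of -0.26 ± 0.20 (adjusted p = 0.823). The promoters of the ligase subunits are shown because both genes fell at 6 h. They are RefSeq windows of GRCr8 on the plus strand, Gclc at chr8:87510226-87510525 and Gclm at chr2:213031885-213032184. Capitals mark an antioxidant response element, TGACNNNGC, which the Gclm window holds on the minus strand 172 bases before the start site. The Gclc window holds no match to the 7 motifs searched.
Gclc: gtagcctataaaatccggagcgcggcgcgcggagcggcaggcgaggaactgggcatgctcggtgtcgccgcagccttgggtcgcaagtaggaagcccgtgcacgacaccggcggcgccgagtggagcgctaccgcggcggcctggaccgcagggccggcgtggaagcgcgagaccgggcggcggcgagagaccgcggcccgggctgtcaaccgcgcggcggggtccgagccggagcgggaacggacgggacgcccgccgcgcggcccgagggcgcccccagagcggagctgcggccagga
Gclm: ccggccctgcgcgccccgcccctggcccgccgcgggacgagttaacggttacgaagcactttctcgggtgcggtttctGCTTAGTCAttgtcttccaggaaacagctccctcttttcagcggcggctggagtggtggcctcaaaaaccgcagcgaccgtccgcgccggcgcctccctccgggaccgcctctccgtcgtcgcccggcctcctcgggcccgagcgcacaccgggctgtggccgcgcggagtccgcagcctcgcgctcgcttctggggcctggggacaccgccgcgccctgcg

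Promoter windows of 250 bases before to 50 after the start were found for 42 of the 48 higher genes and 24 of the 27 lower genes, and 11700 windows served as background. Searched on both strands, the antioxidant response element TGACNNNGC was in 6 of 42 windows of higher genes (14.3%), 3 of 24 of lower genes (12.5%) and 14.4% of all. The E-box CACGTG was in 3 of 42 (7.14%), 1 of 24 (4.17%) and 8.94%. The sterol regulatory element TCACNCCAC was in 0 of 42, 1 of 24 (Cnn3) and 1.11%. The cyclic AMP element TGACGTCA, the D-box TTATGTAA, the heat shock core GAANNTTC and the nuclear receptor element AAAGGTCA had 0 matches in both groups, against 2.85%, 0.53%, 5.9% and 1.05% of all windows. The windows of Cyp2b1 and Cyp2b2 are not among the 42, because their shared probe set lists more than 1 gene. The Cyp2b2 window shown above holds a D-box on the minus strand, 224 bases before the start site. Matches are letters in these windows, not sites shown to be bound.

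Stress genes changed singly. Gadd45b, a growth arrest and DNA damage gene that CAR is known to work with in mouse liver, scored 0.85, 0.75, 0.83, 1.23 and 0.83 on the myclobutanil arrays, against -0.026, -0.0067, 0.16, -0.025 and -0.023 on the control arrays. Controls sat at the array median and treated livers far above, by 0.88 ± 0.11 (adjusted p = 2.7e-06). Among arrays of ending 11 the difference was 0.82 (adjusted p = 0.0272), and with the ending as a term 0.86 (adjusted p = 0.00188). Gadd45b was the sole changed gene of 26 for growth arrest, DNA damage and apoptosis. Of 45 genes of the cell cycle, 0 rose at 6 h and Cdk2 fell, with a difference of -0.10 ± 0.023 (adjusted p = 0.0301). Cdk2 scored 0.46, 0.44, 0.43, 0.41 and 0.47 on the myclobutanil arrays, against 0.54, 0.61, 0.56, 0.55 and 0.45 on the control arrays, and control array 5 lay within the treated range. The call was lost without myclobutanil arrays 2, 3 or 4 or without control arrays 1, 2, 3 or 4 (adjusted p up to 0.123). Ccnd1 and Myc, which drive entry into the cycle, had differences of -0.16 ± 0.086 (adjusted p = 0.665) and -0.18 ± 0.13 (adjusted p = 0.814). Of 41 immediate early and stress signalling genes, 0 passed the threshold.

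Hspa1a, an inducible heat shock chaperone, scored 0.40, 0.50, 0.21, 0.46 and 0.27 on the myclobutanil arrays, against -0.10, -0.0040, -0.064, -0.038 and -0.089 on the control arrays. Controls were near the array median and all treated livers higher, by 0.43 ± 0.10 (adjusted p = 0.0393). A probe set listed for Hspa1a or Hspa1b was higher by 0.67 ± 0.16 (adjusted p = 0.0377). Both calls were lost without myclobutanil arrays 1, 2 or 4 or without control arrays 1, 2, 3, 4 or 5 (adjusted p up to 0.113). Among arrays of ending 11 the differences were 0.53 (adjusted p = 0.000337) and 0.85 (adjusted p = 0.0152), both past the threshold. They were 0.39 (adjusted p = 0.511) and 0.60 (adjusted p = 0.529) with the ending as a term, neither past it. No other of 26 heat shock proteins and cochaperones passed. In endoplasmic reticulum folding, 1 of 31 genes rose: Hspa13, a chaperone of the microsome membrane, scored 1.13, 1.25, 1.07, 1.12 and 1.003 on the myclobutanil arrays, against 0.84, 0.90, 0.82, 0.94 and 1.04 on the control arrays. Treated array 5 was below control array 5, so the groups overlapped, and the difference of 0.21 ± 0.048 (adjusted p = 0.034) lost the call without myclobutanil arrays 1, 2, 3 or 4 or without control arrays 1, 2 or 3 (adjusted p up to 0.134). Hspa5, the main chaperone of that compartment, averaged 3.16 ± 0.15 on the myclobutanil arrays and 3.09 ± 0.24 on the control arrays (SD, n = 5 each), a difference of 0.070 ± 0.13 (adjusted p = 0.949).

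Beyond these lists, genes were grouped by textbook role after their values had been seen, so the groups are descriptions. In amino acid handling, Slc43a1, a carrier of large neutral amino acids, scored 1.19, 1.32, 1.23, 1.59 and 1.29 on the myclobutanil arrays, against 0.61, 0.67, 0.81, 0.94 and 0.59 on the control arrays. Its groups did not overlap, and the difference was 0.60 ± 0.080 (adjusted p = 1.34e-05), 0.57 (adjusted p = 0.00773) with the ending as a term and 0.54 (adjusted p = 0.0814) among arrays of ending 11. Aass, which starts lysine breakdown, scored 2.59, 2.61, 2.67, 2.55 and 2.57 on the myclobutanil arrays, against 2.11, 2.36, 2.11, 2.05 and 1.94 on the control arrays. Treated livers were within 0.12 units of each other and all above the controls, by 0.48 ± 0.11 (adjusted p = 0.0243), a call lost without myclobutanil arrays 2 or 3 or without control arrays 1, 4 or 5 (adjusted p up to 0.0984). For Aass the difference was 0.52 (adjusted p = 0.225) with the ending as a term and 0.56 (adjusted p = 0.309) among arrays of ending 11. Slc6a9, a glycine carrier, scored 0.84, 0.78, 0.70, 0.98 and 0.90 on the myclobutanil arrays, against 0.97, 1.10, 1.18, 1.06 and 1.06 on the control arrays, with treated array 4 just above control array 1 and a difference of -0.24 ± 0.045 (adjusted p = 0.00419). For Slc6a9 the difference was -0.19 (adjusted p = 0.37) with the ending as a term and -0.22 (adjusted p = 0.184) among arrays of ending 11. None of 48 urea cycle and amino acid breakdown genes and 0 of 29 genes of the amino acid response passed. Cndp2, a cytosolic dipeptidase, rose by 0.35 ± 0.080 (adjusted p = 0.0262), a call lost without myclobutanil arrays 2 or 4 or without control arrays 1, 2, 3 or 5 (adjusted p up to 0.123).

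Regulators of small GTPases and of the cytoskeleton were among the higher genes, although Cnn3, an actin-binding calponin, was among the lower. Vav2, an exchange factor for small GTPases, rose on 4 probe sets, with differences of 0.46 ± 0.061 (adjusted p = 1.11e-05), 0.34 ± 0.039 (adjusted p = 1.57e-06), 0.32 ± 0.044 (adjusted p = 2.48e-05) and 0.28 ± 0.039 (adjusted p = 3.84e-05). Its strongest probe set scored 0.67, 0.73, 0.92, 1.03 and 0.89 on the myclobutanil arrays, against 0.42, 0.44, 0.29, 0.43 and 0.35 on the control arrays. No values overlapped, and the treated arrays of ending 12 lay above those of ending 11. Among arrays of ending 11 the difference was 0.30 (adjusted p = 0.235), and with the ending as a term 0.35 (adjusted p = 0.0202). Rapgef4, an exchange factor for Rap that cyclic AMP activates, scored 1.28, 1.27, 1.33, 1.37 and 1.14 on the myclobutanil arrays, against 0.92, 0.80, 0.71, 0.93 and 0.72 on the control arrays. Its groups were apart by 0.46 ± 0.085 (adjusted p = 0.0022). The difference was 0.40 (adjusted p = 0.265) with the ending as a term and 0.42 (adjusted p = 0.395) among arrays of ending 11. Ablim3, an actin-binding protein, scored 0.36, 0.22, 0.42, 0.57 and 0.42 on the myclobutanil arrays, against -0.073, 0.017, 0.043, -0.026 and -0.14 on the control arrays, a difference of 0.44 ± 0.091 (adjusted p = 0.0112) that lost the call without myclobutanil array 4 (adjusted p up to 0.0555). Rell1, a membrane protein of the RELT family, scored 0.25, 0.40, 0.65, 0.79 and 0.48 on the myclobutanil arrays, against -0.075, -0.036, -0.092, 0.031 and 0.071 on the control arrays. Treated livers spread widely above controls near the array median, by 0.53 ± 0.12 (adjusted p = 0.0187), and the call was lost without myclobutanil arrays 3 or 4 (adjusted p up to 0.0906).

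Genes of the secretory pathway and of membrane lipids rose by smaller amounts. Sgpl1, which cleaves sphingosine-1-phosphate, scored 1.20, 1.42, 1.38, 0.95 and 1.13 on the myclobutanil arrays, against 0.87, 0.80, 0.78, 0.72 and 0.85 on the control arrays. All treated livers were higher, with array 4 nearest to the controls, and the difference was 0.41 ± 0.069 (adjusted p = 0.00077), 0.49 (adjusted p = 0.0272) among arrays of ending 11 and 0.45 (adjusted p = 0.0227) with the ending as a term. Sec23b, a coat protein of vesicles that leave the endoplasmic reticulum, rose by 0.29 ± 0.071 (adjusted p = 0.0437). Rint1, a tether of vesicles at that compartment, rose by 0.19 ± 0.036 (adjusted p = 0.00389), and Ptdss2, a phosphatidylserine synthase, by 0.21 ± 0.040 (adjusted p = 0.00343). Gmppb, which makes the mannose donor for glycans, rose on 2 probe sets, by 0.23 ± 0.048 (adjusted p = 0.0149) and 0.17 ± 0.035 (adjusted p = 0.0102). Smaller increases were seen for Golph3l, a Golgi protein (0.18), Ufl1, the ligase of the ubiquitin-like UFM1 (0.18), and Marchf6, a ubiquitin ligase of the endoplasmic reticulum (0.14). Fndc3b rose on 3 probe sets, by 0.36, 0.35 and 0.18, and Tex2 by 0.34 ± 0.054 (adjusted p = 0.000274). Nfe2l1, a transcription factor anchored in that membrane which controls proteasome genes, rose on 2 probe sets, by 0.19 ± 0.045 (adjusted p = 0.034) and 0.16 ± 0.034 (adjusted p = 0.0136), while 0 of 33 proteasome subunits passed (median 0.023). When any single array was left out, the calls for Sgpl1, Rint1, Ptdss2 and Tex2 were kept, as was that of the Gmppb probe set at 0.17. The other calls in this group were each lost without some single array, with adjusted p up to 0.063, 0.0734 and 0.0895 for Fndc3b, 0.149 for Sec23b and 0.117 for the Nfe2l1 probe set of the larger difference.

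Genes of chromatin and DNA repair were also found among the higher ones, while the nuclear proteins Uhrf2, Adnp and Znf740 were among the lower. Smarca2, an ATPase of SWI/SNF remodelling complexes, rose on 2 probe sets. The probe set of the larger difference scored 0.85, 0.85, 0.72, 1.0 and 0.65 on the myclobutanil arrays, against 0.31, 0.51, 0.54, 0.52 and 0.49 on the control arrays. The groups were apart by 0.34 ± 0.059 (adjusted p = 0.00111), and the second probe set gave 0.33 ± 0.049 (adjusted p = 0.000104). Among arrays of ending 11 both passed, at 0.41 (adjusted p = 0.0188) and 0.41 (adjusted p = 0.00567), as they did with the ending as a term, at 0.37 (adjusted p = 0.032) and 0.38 (adjusted p = 0.00344). Parp1, which senses DNA breaks, scored 1.26, 1.37, 1.22, 1.36 and 1.24 on the myclobutanil arrays, against 0.97, 1.10, 0.99, 1.04 and 0.91 on the control arrays. No values overlapped, and the difference was 0.29 ± 0.051 (adjusted p = 0.00165), with 0.30 (adjusted p = 0.0475) when the ending was a term and 0.34 (adjusted p = 0.0814) among arrays of ending 11. Xrcc1, a scaffold of single-strand break repair, rose by 0.15 ± 0.033 (adjusted p = 0.0187), Swsap1, a partner of a recombination protein, by 0.15 ± 0.033 (adjusted p = 0.0187), and Mnd1, which acts in meiotic recombination, by 0.19 ± 0.045 (adjusted p = 0.0476). Mnd1 averaged -0.0095 on the myclobutanil arrays and -0.195 on the control arrays, near or below the array median, and its groups overlapped. Calls of Xrcc1, Swsap1 and Mnd1 were each lost when some single array was left out, with adjusted p up to 0.105, 0.0798 and 0.172.

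Other higher genes had differences between 0.13 (Pm20d2) and 0.33 (Gpd1l1, 2 probe sets). They were Dip2a, Fzd4 (a Wnt receptor), Ppif (the mitochondrial cyclophilin), Shc1 (a signalling adaptor), Adss1 (a step of AMP synthesis), Mid1, Amigo3, Scnn1a (a sodium channel subunit), Vcpip1 and Zfp46, as well as a probe set listed for Lamtor1 or Lamtor1l1. The calls of Gpd1l1, Dip2a, Fzd4, Ppif, Amigo3 and the Lamtor1 probe set were kept when any single array was left out, and the others were lost at least once. Ccl2, the chemokine that attracts monocytes, scored -0.074, 0.027, -0.16, -0.059 and -0.19 on the myclobutanil arrays, against -0.19, -0.28, -0.21, -0.31 and -0.27 on the control arrays. All of its values lay near or below the array median, and treated array 5 did not exceed control array 1. Its difference was 0.16 ± 0.031 (adjusted p = 0.00496), 0.23 (adjusted p = 0.0152) among arrays of ending 11 and 0.20 (adjusted p = 0.0182) with the ending as a term. The Kupffer cell and macrophage markers, whose list held 0 calls, had a median of -0.077 units, and of 0.014 among arrays of ending 11.

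Several lower genes encode regulators of transcription. Tsc22d1, a leucine zipper protein that TGF-beta is known to induce, scored 1.97, 2.29, 1.69, 1.70 and 1.77 on the myclobutanil arrays, against 2.62, 3.06, 2.21, 2.48 and 2.79 on the control arrays. Control array 3 lay below treated array 2, so the groups overlapped, and the difference of -0.75 ± 0.16 (adjusted p = 0.0113) lost the call without myclobutanil array 3 or without control array 2 (adjusted p up to 0.0696). It was -0.65 (adjusted p = 0.317) with the ending as a term and -0.50 (adjusted p = 0.684) among arrays of ending 11. Other, dimmer Tsc22d1 probe sets differed by -0.018, 0.012 and -0.030, none past the threshold. Tsc22d1 was the sole changed gene of 25 in the list of glucocorticoid targets and metallothioneins, and Tat, a classical target, had a difference of -0.085 ± 0.22 (adjusted p = 0.967). Tcf7l2, a factor that carries the Wnt signal to DNA, scored 1.11, 1.07, 0.97, 0.84 and 1.12 on the myclobutanil arrays, against 1.22, 1.39, 1.13, 1.41 and 1.42 on the control arrays. Control array 3 lay only just above the highest treated liver. The difference was -0.29 ± 0.055 (adjusted p = 0.00352), -0.33 (adjusted p = 0.0279) with the ending as a term and -0.26 (adjusted p = 0.231) among arrays of ending 11. Tcf7l2 was the sole changed gene of 18 for pericentral and Wnt genes.

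Usf2, a factor that binds E-boxes, scored 0.26, 0.25, 0.18, 0.24 and 0.27 on the myclobutanil arrays, against 0.43, 0.47, 0.52, 0.46 and 0.42 on the control arrays, with every treated liver lower and a difference of -0.22 ± 0.039 (adjusted p = 0.0012). That difference was -0.19 (adjusted p = 0.215) with the ending as a term and -0.18 (adjusted p = 0.478) among arrays of ending 11. Id4, an inhibitor of DNA binding by helix-loop-helix factors, scored 1.60, 1.61, 1.48, 1.17 and 1.59 on the myclobutanil arrays, against 1.99, 2.27, 1.94, 1.56 and 1.84 on the control arrays. Treated arrays 1, 2 and 5 were above control array 4, and the difference of -0.43 ± 0.10 (adjusted p = 0.0496) was close to the threshold and lost the call without myclobutanil arrays 1, 2, 3 or 4 or without control arrays 1, 2, 3 or 5 (adjusted p up to 0.188). Uhrf2, Adnp and Znf740, all nuclear proteins, fell, with differences of -0.20 ± 0.042 (adjusted p = 0.0102), -0.12 ± 0.027 (adjusted p = 0.0171) and -0.15 ± 0.029 (adjusted p = 0.00419), of which those of Uhrf2 and Adnp were lost in some repeats without 1 array (adjusted p up to 0.0602 and 0.0625). Other Adnp probe sets differed by -0.045, -0.064 and 0.025, and another Znf740 probe set by -0.030, none past the threshold. Samd11 scored 0.26, 0.10, 0.045, 0.013 and 0.040 on the myclobutanil arrays, against 0.41, 0.37, 0.17, 0.32 and 0.35 on the control arrays, with treated array 1 above control array 3, and a difference of -0.23 ± 0.044 (adjusted p = 0.00352).

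Among receptors and adhesion genes, Ptger3, a receptor of prostaglandin E, scored 0.54, 0.38, 0.34, 0.48 and 0.48 on the myclobutanil arrays, against 0.66, 0.96, 0.74, 0.99 and 1.05 on the control arrays. No values overlapped, and the difference was -0.43 ± 0.088 (adjusted p = 0.00827). It was -0.43 (adjusted p = 0.231) with the ending as a term and -0.43 (adjusted p = 0.395) among arrays of ending 11. Bcar3, a signalling adaptor, scored 0.39, 0.33, 0.11, 0.30 and 0.36 on the myclobutanil arrays, against 0.72, 0.62, 0.34, 0.56 and 0.49 on the control arrays, and Cnn3, an actin-binding calponin, scored 1.61, 1.59, 1.42, 1.73 and 1.67 on the myclobutanil arrays, against 1.71, 1.90, 1.99, 2.07 and 2.04 on the control arrays. In both genes the groups overlapped, with differences of -0.25 ± 0.057 (adjusted p = 0.0317) and -0.34 ± 0.081 (adjusted p = 0.0429). The calls were lost without myclobutanil arrays 2, 3 or 4 or without control arrays 1, 2 or 4 (adjusted p up to 0.165) for Bcar3 and without myclobutanil arrays 1, 2 or 3 or without control arrays 2, 3, 4 or 5 (adjusted p up to 0.176) for Cnn3. Itga7 (an integrin), Ankh (which exports pyrophosphate), Vegfb (a vascular growth factor), Pard3 (a polarity protein), Trim2, Lrrc42, Kank2 and Kif16b (an endosome motor) had differences of -0.12 (Kif16b) to -0.22 (Itga7). The calls of Lrrc42 and Kif16b were kept when any single array was left out, and those of the other 6 were lost at least once. Trim2 was the only one of the 118 in which not all 5 treated values lay to one side of the mean of the controls.

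Probe sets with no listed gene made up 25 of the 118, 19 higher and 6 lower. Their differences ran from -0.46 (1372261_at) to 0.68 (1378982_at). Probe sets 1375925_at, 1395814_at, 1397944_at and 1372890_at were higher by 0.45, 0.44, 0.52 and 0.49 and passed the threshold in both fits for the ending. Of the 75 changed genes, 41 had more than 1 probe set and 11 more than 1 changed. The changed genes had 53 other probe sets, none of them past the threshold, and 47 of these differed in the same direction. Just inside the threshold stood Por (adjusted p = 0.0477), Id4 (0.0496) and Trim2 (0.0496), and just outside Atp7a (0.0505), the brighter Srebf1 probe set (0.0507) and probe set 1384829_at (0.0507).

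Across 34 lists of liver functions, 14 held a changed gene and 20 held none. The lists without a call included the circadian clock (21 genes), where Dbp scored 1.04, 0.40, 0.11, 1.69 and 1.19 on the myclobutanil arrays, against 0.99, 1.25, 1.54, 1.51 and 1.26 on the control arrays, a wide spread in the treated group and a difference of -0.43 ± 0.18 (adjusted p = 0.486). Per1 had a difference of -0.016 ± 0.051 (adjusted p = 0.972). Glycolysis and gluconeogenesis (37 genes), the interferon response (32), the growth hormone axis (29), thyroid hormone action (18), hypoxia targets (25) and tubulins and cytoskeleton (21) also had 0 calls. So did the cold-inducible pair Cirbp and Rbm3, with differences of 0.029 ± 0.031 (adjusted p = 0.893) and 0.036 ± 0.054 (adjusted p = 0.941). Ribosome biogenesis had 32 of 37 differences above 0, where 6214 of all 14217 genes did, and a median of 0.029 units, with 0 calls. The 37 ribosomal protein genes and 51 genes of the respiratory chain also had 0 calls.

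Medians of lists of bright genes moved with the scale of the arrays. For the 305 probe sets with a mean score above 3, the median difference was -0.106 units as deposited and -0.0089 after quantile normalization, and between 2 and 3 it was -0.040 and -0.0050. Acute phase and secreted plasma proteins, 42 genes with 0 calls, had medians of -0.139 and 0.0079 under these scalings. Hepatocyte markers had -0.141 and -0.0063, ribosomal proteins -0.072 and -0.019, and the respiratory chain -0.029 and 0.0015. All of these medians were above 0 with the ending as a term, at 0.124 for plasma proteins, 0.127 for hepatocyte markers, 0.070 for ribosomal proteins and 0.085 for the respiratory chain. These bright lists therefore have no settled direction. After quantile normalization the medians of sterol synthesis, fatty acid synthesis and Kupffer cell markers were -0.106, -0.089 and -0.080. The fit with the ending as a term gave -0.056, -0.025 and -0.031, and the arrays of ending 11 alone gave -0.076, -0.016 and 0.014, so the Kupffer cell markers turned sign there. All 118 calls remained after quantile normalization, within 266 higher and 175 lower probe sets.

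**Figure D3:**
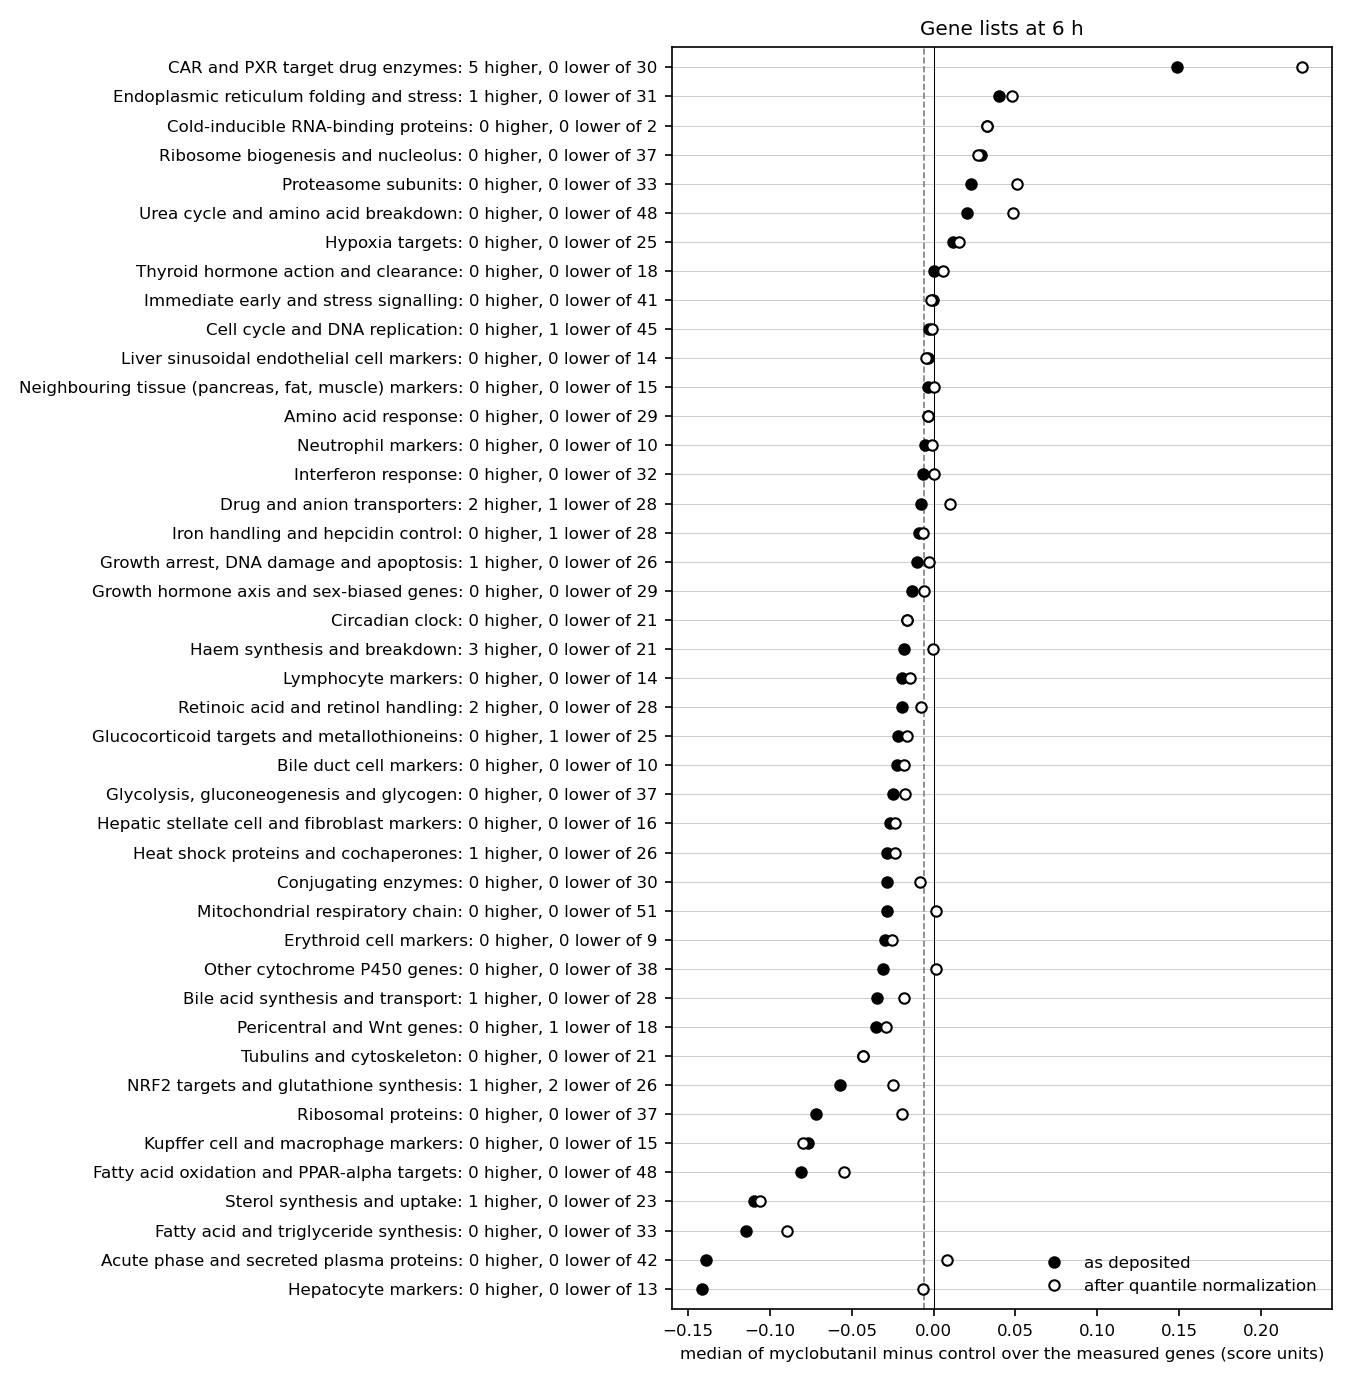
Median of myclobutanil minus control (score units) over the measured genes of 43 lists, as deposited (filled) and after quantile normalization (open), with the counts of changed genes beside each name. The dashed line is the median of all genes, -0.0056; the CAR and PXR list stands at 0.148, and hepatocyte markers and plasma proteins are at -0.141 and -0.139 as deposited but near 0 after quantile normalization.

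The file-name ending was set against all 118 calls. With the ending as a term in the fit over 45 arrays, 36 of the 118 were called (30 of the higher, 6 of the lower), where 33 probe sets were higher (0.106%) and 7 lower (0.0226%) in that fit as a whole. Among the 2 myclobutanil and 3 control arrays of ending 11, 19 were called (18 of the higher and Gclm), where 19 were higher (0.0612%) and 1 lower (0.00322%) in all. That fit took its spread from every array of ending 11 in the series. Calls in both fits numbered 15: Cyp2b1 or Cyp2b2, Insig2, Gadd45b, Hmox1, Ccl2, Sgpl1, Dip2a, Gpd1l1, both Smarca2 probe sets, Gclm and 4 probe sets without a gene. Cdk2, Hspa13, Cndp2, Ablim3, Rell1, Id4, Bcar3 and Cnn3 were called in neither fit, and Samd11 only with the ending as a term. The sign was the same as over all arrays for all 118 in each fit. Without control arrays 2 and 3, a setting chosen after the values had been seen, 58 probe sets were higher and 16 lower. Of the 15 calls made in both fits for the ending, some were lost when only the arrays of the compared groups were fitted. They were Hmox1 (adjusted p = 0.0774), Ccl2 (0.236), Sgpl1 (0.066) and the Smarca2 probe set 1385074_at (0.0679), and the rest were kept. The treated arrays of ending 12 lay farther from the control mean than those of ending 11 in 62 of the 118 and nearer in 56. These fits hold fewer arrays or more terms than the fit over the groups alone, and the part of the ending in calls that they lost was not tested.

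**Figure D4:**
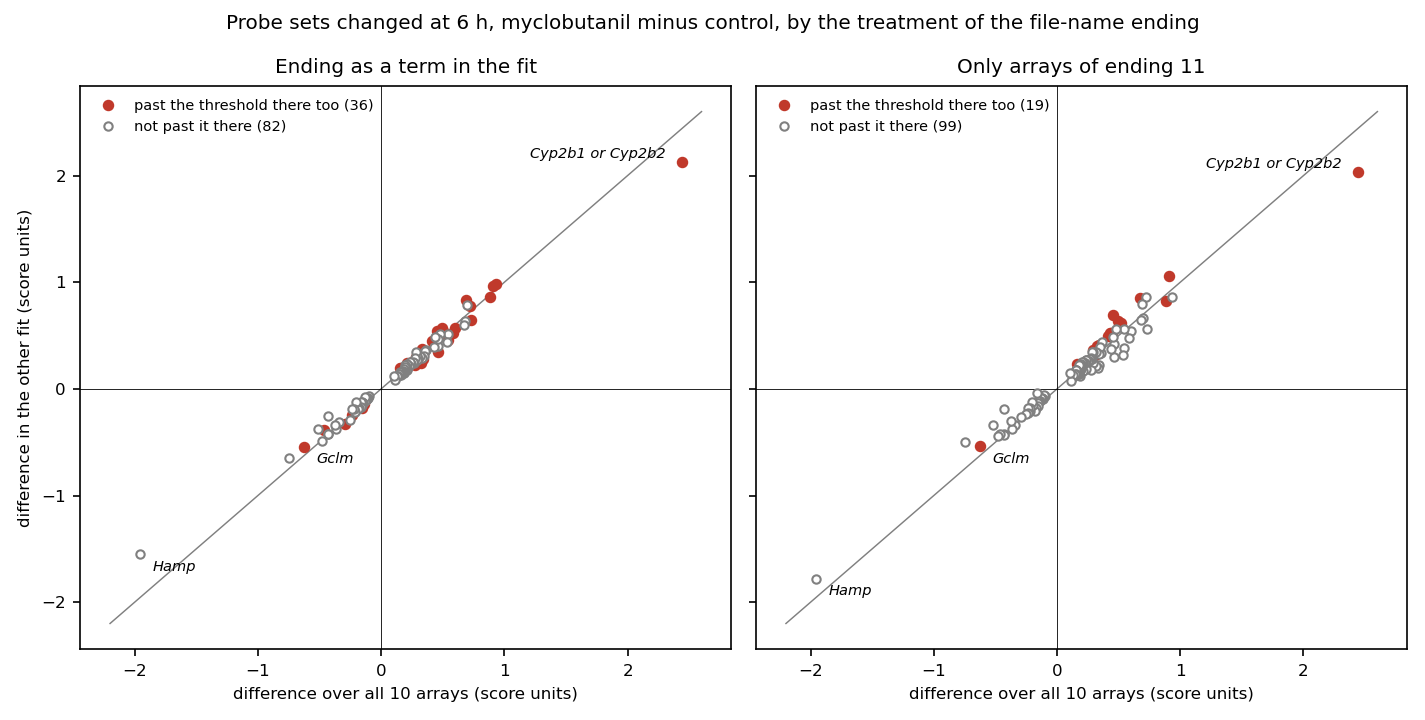
Differences of the 118 changed probe sets (score units) with the ending as a term (left) and among the 5 arrays of ending 11 (right), against the difference over all 10 arrays; the line marks equality. Filled points pass the threshold in the other fit as well, 36 and 19 of 118, and all points lie in the quadrants of equal sign.

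The arrays of 24 h and 14 days hold other livers and other controls, so the differences at those times use no array of 6 h. All 45 arrays share the estimate of the spread, however, so a probe set of low spread passes the threshold more readily at every time. Of the 84 higher probe sets, 25 were also higher at 24 h, where 3.05% of all probe sets were, and 2 were lower. Of the 34 lower, 10 were also lower at 24 h, where 5.42% of all were, and 3 were higher. The 35 shared calls are 29.7% of the calls at 6 h and 1.33% of the 2628 calls at 24 h. At 14 days 6 of the 84 were higher, where 0.734% of all were, and 0 of the 34 were lower, where 0.058% of all were. These 6 are 5.08% of the calls at 6 h and 2.44% of the 246 at 14 days, and 5 probe sets were called in the same direction at all 3 times.

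Some genes of the CAR and PXR list were called again later, and others at 24 h only. Cyp2b1 or Cyp2b2 differed by 2.59 ± 0.21 (adjusted p = 6.66e-11) at 24 h and 2.63 ± 0.21 (adjusted p = 7.63e-11) at 14 days. Slco1a4 differed by 1.04 ± 0.095 (adjusted p = 1.56e-09) at 24 h and 0.67 ± 0.095 (adjusted p = 3.07e-05) at 14 days. Por, whose call at 6 h was close to the threshold, differed by 0.79 ± 0.17 (adjusted p = 0.00176) at 24 h and 0.35 ± 0.17 (adjusted p = 0.36) at 14 days. Alas1 differed by 0.94 ± 0.17 (adjusted p = 0.000254) at 24 h and, not past the threshold, 0.26 ± 0.17 (adjusted p = 0.529) at 14 days. Abcb1a gave 0.66 ± 0.092 (adjusted p = 4.74e-06) and 0.19 ± 0.092 (adjusted p = 0.376). Parp1 was higher at both, by 0.33 ± 0.051 (adjusted p = 2.74e-05) and 0.23 ± 0.051 (adjusted p = 0.0191), and so was Cndp2, by 0.40 ± 0.080 (adjusted p = 0.000698) and 0.32 ± 0.080 (adjusted p = 0.0424). Vav2 was higher at 24 h on all 4 probe sets, the strongest by 0.51 ± 0.061 (adjusted p = 3.86e-07). Mnd1 was higher by 0.46 ± 0.045 (adjusted p = 4.84e-09) at 24 h. On the lower side, Tsc22d1 was below control at 24 h, with a difference of -1.05 ± 0.16 (adjusted p = 1.25e-05), and Osbpl11, Ptger3, Slc13a4, Id4, Samd11, Ankh, Adnp and Znf740 were lower as well.

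Other genes were called at 6 h and not later. Hamp differed by 0.049 ± 0.38 (adjusted p = 0.961) at 24 h and 0.075 ± 0.38 (adjusted p = 0.958) at 14 days. Insig2 differed by 0.0048 ± 0.13 (adjusted p = 0.989) and -0.15 ± 0.13 (adjusted p = 0.664). Hmox1 gave 0.026 ± 0.068 (adjusted p = 0.874) and 0.077 ± 0.068 (adjusted p = 0.666), Cyp26b1 -0.25 ± 0.12 (adjusted p = 0.23) and 0.24 ± 0.12 (adjusted p = 0.407), and Gadd45b 0.31 ± 0.11 (adjusted p = 0.0615) and 0.0066 ± 0.11 (adjusted p = 0.986). Whether these differ from the values at 6 h was not tested here.

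Calls of opposite direction at 24 h were made for Golph3l, Pm20d2, Cdk2 and both Gclc probe sets. The Gclc probe sets were higher at 24 h, by 0.50 ± 0.078 (adjusted p = 2.76e-05) and 0.50 ± 0.081 (adjusted p = 5.8e-05), and at 14 days by 0.30 ± 0.078 (adjusted p = 0.0506) and 0.36 ± 0.081 (adjusted p = 0.0192), of which the last passed the threshold. At 14 days the unnamed probe set 1372261_at was also higher, by 0.28 ± 0.066 (adjusted p = 0.026). Of the cell cycle list, 37 of 45 genes were higher at 24 h, beside 0 at 6 h.

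**Figure D5:**
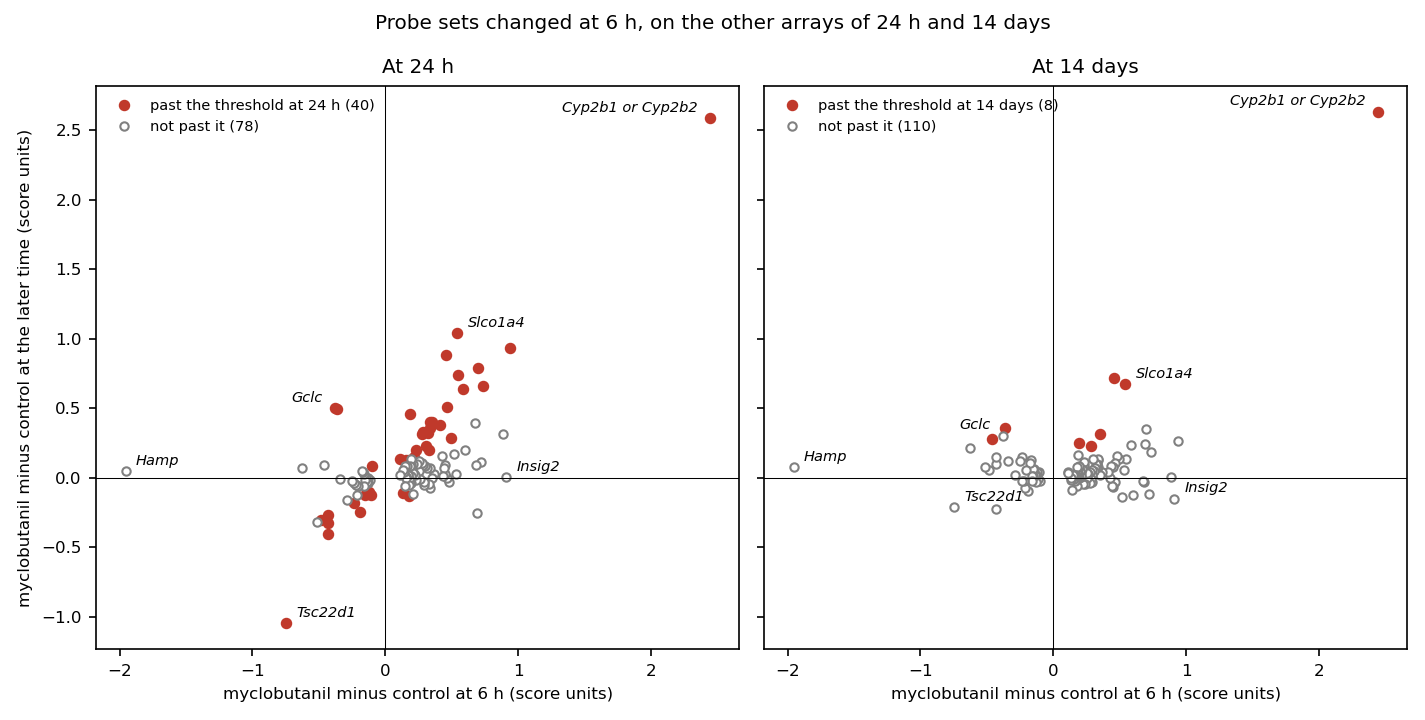
Difference between myclobutanil and control livers at 24 h (left) and 14 days (right) against that at 6 h (score units), for the 118 probe sets changed at 6 h. Filled points passed the threshold at the later time; Cyp2b1 or Cyp2b2 stays near 2.6 at both, Gclc stands above 0 while below 0 at 6 h, and Hamp and Insig2 lie near 0 at 24 h.

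Triadimefon, a triazole that carries a ketone, whereas myclobutanil carries a nitrile, was given at 175 mg/kg/day, against 225 mg/kg/day for myclobutanil, and its arrays at 6 h share the controls with myclobutanil. The compounds were therefore set against each other directly, in a contrast in which the controls cancel; the doses still differ. Each side held 2 arrays of ending 11 and 3 of ending 12. Of the 118 probe sets, 5 differed between the compounds, where 78 of all (0.251%) did: Hmox1, Ccl2 and the unnamed 1383978_at and 1393961_at were higher with myclobutanil, and 1380425_at was lower. Hmox1 was higher by 0.46 ± 0.068 (adjusted p = 0.000204), with differences from control of 0.45 for myclobutanil and -0.013 ± 0.068 for triadimefon. Ccl2 was higher by 0.14 ± 0.031 (adjusted p = 0.0217).

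Side by side with the same controls, the differences for myclobutanil and triadimefon were 2.44 and 2.38 ± 0.21 for Cyp2b1 or Cyp2b2, 0.94 and 0.81 ± 0.17 for Alas1, 0.91 and 0.56 ± 0.13 for Insig2, and -1.95 and -1.51 ± 0.38 for Hamp. The direct differences were 0.062 ± 0.21 (adjusted p = 0.989), 0.13 ± 0.17 (adjusted p = 0.964), 0.35 ± 0.13 (adjusted p = 0.436) and -0.44 ± 0.38 (adjusted p = 0.918), none past the threshold, which does not show that the treatments acted alike.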

How the data were processed

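Liver RNA was hybridised to Affymetrix Rat Genome 230 2.0 arrays, per the labels' protocols. Each array was taken as 1 liver on the word of the titles, although the labels conflict on animal numbers. The deposited values are a score per probe set and array; their summarisation, normalization and log base are not given in the sources used here, array medians lie near 0, and the upper percentiles differ between arrays. Of 31099 probe sets, 57 Affymetrix controls were left out. Of the 31042 tested, GEO's platform annotation lists 1 gene for 20826, several for 436 and none for 9780; 20758 gene IDs were found in RefSeq's table (GRCr8), and 0 symbols changed. Lists and motif searches ran over genes, each by its probe set of highest mean score (14217 genes).

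A mean per group was fitted over all 45 arrays with limma 3.58.1 (R 4.3.3), with moderated variances and Benjamini-Hochberg adjustment over 31042 probe sets; the script was tested on simulated data. Tables and figures used Python 3.11.15, pandas 2.3.3 and matplotlib 3.10.9. The number of arrays limits the precision, and p-values measure only the spread between these arrays. Alternatives were quantile normalization, equal medians, a level filter, the 10 arrays alone, a variance trend, array weights, a replicate block, the file-name ending, a stricter threshold and each array left out.

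The comparison, the lists and the genes named were chosen with earlier results of these data known. Named with values per array were the 15 highest and 15 lowest genes whose 5 treated values were all above or all below the mean of the controls, the leading changed members of each list (at most 4) and a panel of 29 entries, changed or not; 1 more entry is not reported here. Other changed genes are given in groups with their range, and changed probe sets without a gene by ID.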

Additional observations from a re-analysis of the deposited data

Results flagged for a closer look

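Among 212 groups of 5 arrays tested (106 called or named probe sets with a gene, each in myclobutanil and control livers), 10 held a single array far from the others of its group by Dixon's criterion for 5 samples. Chance gives about 1 in 20 groups, so 10 of 212 is near that share. Gadd45b scored 1.23 on myclobutanil array 4, where the others reached 0.847, and 0.16 on control array 3, where the others reached -0.00669. Amigo3 scored 0.15 on myclobutanil array 1 and Kank2 -0.064 on the same array. Myc scored 0.369 on myclobutanil array 2. On control array 3, Rint1 scored 0.135, Ufl1 0.475 and Rbm3 0.513, each below the rest of the controls. Smarca2 (1385074_at) scored 0.315 on control array 1, and Ankh 0.792 on control array 4.

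For 13 probe sets with a gene, every treated liver lay on one side of the control mean at 6 h. At 24 h or 14 days every treated liver lay on the other side, in 16 comparisons. Probe sets without a gene are not in this count, and the difference between times was not tested. Gclc was below control at 6 h and above it later on both probe sets, with differences at 24 h of 0.496 (1372523_at) and 0.502 (1370688_at), and at 14 days of 0.359 and 0.302. Gclm, with -0.63 at 6 h, had 0.0689 at 24 h and 0.215 at 14 days, neither past the threshold. Lower at 6 h and above control later were also Cdk2 (0.0869 at 24 h), Vegfb (0.104 at 14 days) and Slc6a9 (0.149 at 14 days). Higher at 6 h and below control at 24 h were Golph3l (-0.133), Pm20d2 (-0.11), Ufl1 (-0.0536) and Swsap1 (-0.0633). Higher at 6 h and below control at 14 days were Gmppb (-0.0488), Fndc3b (-0.0581) and Marchf6 (-0.0883). Of these later values, those of Golph3l, Pm20d2, Cdk2 and Gclc at 24 h and of Gclc (1372523_at) at 14 days passed the threshold.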

How the results depend on the processing

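The counts of 84 higher and 34 lower probe sets moved with the processing, and none of the 118 changed sign under the settings compared for single probe sets. Of the genes not called at 6 h, the difference of Insig1 (-0.25) became 0.032 with the ending as a term and 0.058 without control arrays 2 and 3. Without those arrays Tat, Per1 and Rbm3 also turned sign, to 0.175, 0.016 and -0.0053, and Hspa5 reached -0.010 with 1 array left out. Quantile normalization gave 266 higher and 175 lower, with all 118 calls among them. With the ending as a term 33 were higher and 7 lower, and the arrays of ending 11 alone gave 19 and 1; both fits spend or drop arrays. An adjusted p under 0.01 left 41 and 13. Lower calls numbered 66 among probe sets above the median level, 22 with the 10 arrays alone and 84 with array weights, where higher calls stayed within 1.5 times of 84 (104, 57 and 120). Leaving out 1 array gave 51 to 97 higher and 17 to 47 lower, with 51 without myclobutanil array 2, 17 without control array 2 and 18 without myclobutanil array 3. Without control arrays 2 and 3 together, a setting chosen after seeing the data, 58 were higher and 16 lower. With the replicate number as a block, 101 were higher and 60 lower; correlations of the deviations of same-numbered arrays ran from -0.22 to 0.30, so the numbers were not taken to pair the livers, and in 3 of 5 pairs they were at or under 0.1. Of 106 named or called probe sets with a gene, the block lost 0 calls. Of the 118 calls, 4.24% differed between the compounds. Of the 33 higher and 7 lower calls made with the ending as a term, 7.5% did, a share of fewer calls. Causes of these shifts were not tested. Of 43 list medians, 24 were flagged as moved with the ending as a term, 26 among arrays of ending 11 and 1 after quantile normalization. The flag is not a count of changed signs. After quantile normalization the medians turned sign for plasma proteins (-0.139 to 0.0079), the respiratory chain (-0.029 to 0.0015), other P450 genes (-0.031 to 0.0016) and drug and anion transporters (-0.0075 to 0.0098). That of hepatocyte markers went from -0.141 to -0.0063. Small differences at low scores and the number of arrays limit what could be called.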
